A study of Mus musculus with 90 samples.

Results

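CT26, an undifferentiated mouse colon carcinoma line, was kept in interferon-γ (IFNγ) at 50 IU/mL for up to 3 weeks, and the transcripts that changed between the second and the third week of exposure are described here. The comparison rests on 6 of the 90 samples of the series: 3 libraries from cultures held in IFNγ for 3 weeks and 3 from cultures held in it for 2 weeks, none of which had been given fresh IFNγ before harvest. The control cultures received bovine serum albumin in place of the cytokine (0 IU/mL) for the same 2 or 3 weeks, with 3 libraries at each time. Sister cultures after 2 and 3 weeks of IFNγ were also given fresh IFNγ for 2 h or 24 h, with 3 libraries each. All cultures were of 1 established line, so the replicates are samples of that line, and nothing in the labels says whether they came from separately kept cultures. The libraries read the 3′ ends of transcripts (3′ digital gene expression), so a count stands for tags near the end of a transcript and not for its whole length.

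IFNγ binds its receptor on the cell surface and activates the kinases JAK1 and JAK2. The transcription factors they switch on bind GAS elements and induce IRF1 and other factors, and complexes that hold IRFs bind the interferon-stimulated response element (ISRE). The induced genes encode guanylate-binding proteins (GBPs) and immunity-related GTPases, antiviral effectors, the antigen presentation machinery, PARPs and ligands of immune checkpoints. Feedback proteins such as SOCS1 dampen the signal while the cytokine is present.

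The libraries held 1080166 to 1736116 counts at 2 weeks of IFNγ and 295157 to 1080409 at 3 weeks, against 947459 to 1448801 and 1318011 to 2183005 in the controls. Replicate 3 at 3 weeks of IFNγ was the shallow one, at 22.4% of the CT26 median of 1318011 counts, and 1 read there was worth 3.34 CPM (counts scaled to 1e+06 of the effective library size). Mitochondrially encoded transcripts took 7.08 to 7.43% of counts at 3 weeks of IFNγ and 6.16 to 6.81% at 2 weeks, so the 2 groups did not overlap in this share, and its part in the results was not tested. Of 9 colon epithelial markers, 7 (Cdx1, Cdx2, Vil1, Epcam, Cdh1, Lgals4 and Krt8) were counted at 0 in all 12 IFNγ and control libraries, and the other 2, Krt18 and Krt20, summed to 56.9 to 78.6 CPM. Of 7 leukocyte markers, 4 were at 0 in all 12, and the sum of the list did not exceed 7.03 CPM in any. Of 2 endothelial markers Cdh5 was at 0 in all 12, while Pecam1 stood at 229 to 395 CPM. The 6 fibroblast markers summed to 46.7 to 136 CPM, and the 6 melanocyte markers to 2.21 to 16.7 CPM.

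Between 2 and 3 weeks of IFNγ, 136 genes were higher (1.60% of the 8516 tested) and 134 were lower (1.57%) at an adjusted p under 0.05 in edgeR's quasi-likelihood test. The risers changed by a median log2 fold change of 1.49, and 98 of them by at least 1. The fallers changed by a median of -0.51, and 9 of them by at least 1. Of the 107 tested genes in the 8 interferon lists, 52 rose (48.6%) and 0 fell, with 2 lower at an unadjusted p under 0.05. In DESeq2 48 of them rose and 0 fell. The lists and their members were chosen with earlier results of these data known, so these shares and the list medians can depend on that choice. In the controls over the same week 12 genes were higher (0.141%) and 27 lower (0.317%).

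The genes with the smallest p-values among the risers were GBPs, GTPases that assemble on intracellular pathogens and vacuoles. Gbp2b measured 47.4, 33.2 and 56.0 CPM in the 3 libraries at 2 weeks and 234, 265 and 334 CPM at 3 weeks. Every 3-week library was thus above every 2-week library, and the fitted log2 fold change was 2.54 ± 0.17 (SE, adjusted p = 1.44e-14). Its control libraries held 1.48 to 4.60 CPM at 2 weeks and 4.09 to 4.91 CPM at 3 weeks. Gbp7 measured 56.3, 73.1 and 77.4 CPM at 2 weeks and 346, 329 and 324 CPM at 3 weeks, a log2 fold change of 2.27 ± 0.16 (adjusted p = 4.16e-14). The 3 values at 3 weeks lay closer together than those of any other GBP named here. Gbp4 showed the largest log2 fold change of the GBPs named here, 2.83 ± 0.22 (adjusted p = 4.95e-13), from 35.8 to 47.5 CPM at 2 weeks to 248 to 319 CPM at 3 weeks. Gbp3 rose from 24.3 to 35.8 CPM to 108 to 154 CPM (log2 fold change 2.29 ± 0.18, adjusted p = 4.95e-13), and Gbp2 from 69.3 to 73.3 CPM to 227 to 298 CPM (1.84 ± 0.17, adjusted p = 6.99e-11).

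Gbp7, Gbp3, Gbp2b and Gbp2 lie side by side on chromosome 3 (GRCm38, GENCODE M21), from 142530342 at the start of Gbp7 to 142638008 at the end of Gbp2, all on the plus strand. Gbp4 belongs to a second GBP cluster, on chromosome 5 (105115767 to 105139586, minus strand). GBPs share stretches of sequence, so reads counted to one member could in part belong to another.

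The immunity-related GTPases, which act on the membranes of vacuoles that hold parasites, rose as well. Iigp1 measured 59.0, 79.8 and 87.2 CPM at 2 weeks and 318, 272 and 271 CPM at 3 weeks (log2 fold change 1.93 ± 0.18, adjusted p = 3.09e-10). Igtp measured 78.7, 87.4 and 72.8 CPM at 2 weeks and 190, 207 and 151 CPM at 3 weeks (1.24 ± 0.15, adjusted p = 2.13e-07). Igtp was also the 1 gene called higher in both the IFNγ and the control cultures: its controls went from 1.93 to 3.45 CPM to 8.12 to 11.5 CPM (log2 fold change 1.98, adjusted p = 0.00782). The control means of Igtp at weeks 0, 1, 2 and 3 were 8.50, 8.04, 2.53 and 9.97 CPM. The 2-week controls were thus the lowest, and they rested on 3, 3 and 2 reads. The IFNγ and control changes of Igtp did not differ past the threshold (difference -0.74, adjusted p = 0.664). Of the 16 tested interferon-induced GTPases 10 rose and 0 fell, with a median log2 fold change of 2.28, against 0.04 over all genes tested.

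**Figure D1:**
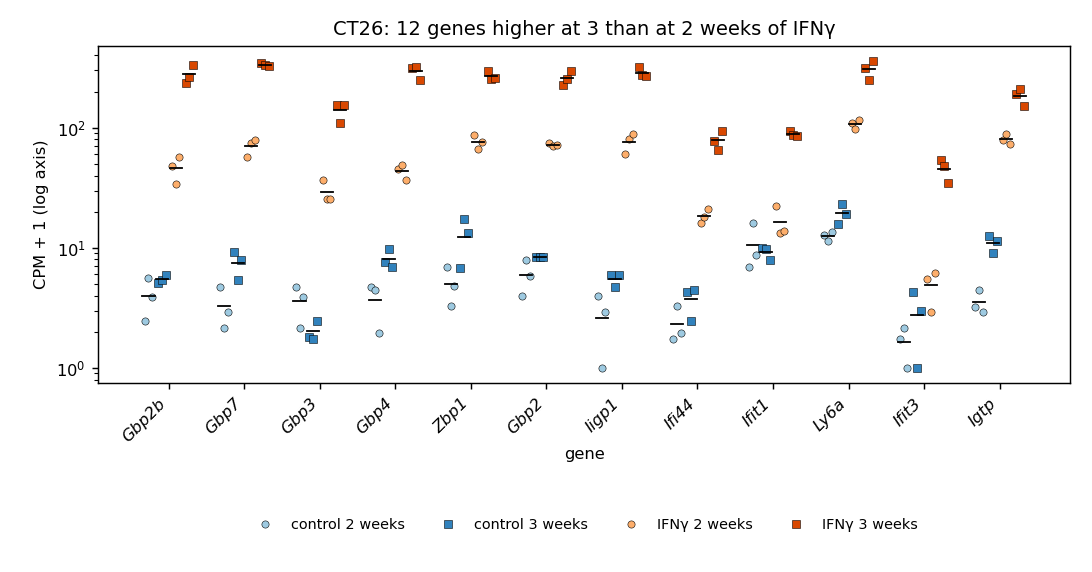
CPM + 1 on a log axis in each of the 3 libraries of 4 CT26 groups (controls and IFNγ cultures at 2 and 3 weeks) for the 12 genes with the smallest p-values among those higher at 3 weeks of IFNγ, with black bars at the means of CPM + 1. The choice also required every 3-week IFNγ value to lie above every 2-week one. The 3-week IFNγ squares thus stand above the 2-week IFNγ circles, for Gbp2b at 234 to 334 against 33.2 to 56.0 CPM. The control libraries of both times lie below both except for Ifit1 and Ifit3, where control and 2-week IFNγ values come close or overlap.

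Antiviral effectors and sensors formed the other large group, with 22 of 31 tested members higher, 0 lower and a median log2 fold change of 1.56. Ifit1, which binds viral RNA that lacks host cap methylation, measured 21.5, 12.3 and 12.7 CPM at 2 weeks and 93.1, 85.7 and 83.6 CPM at 3 weeks (log2 fold change 2.52 ± 0.28, adjusted p = 1.24e-08). The 2-week values overlapped those of the 2-week controls, 5.90 to 14.9 CPM, while the 3-week values were far above the 3-week controls, 6.88 to 9.002 CPM. Ifit3, a partner of IFIT1, measured 4.47, 1.90 and 5.20 CPM at 2 weeks and 52.7, 47.4 and 33.4 CPM at 3 weeks (3.49 ± 0.41, adjusted p = 1.01e-07). Ifit3 and Ifit3b are near-identical copies between which reads may be split. Zbp1, a sensor of left-handed nucleic acids, measured 65.5 to 86.7 CPM at 2 weeks and 255 to 298 CPM at 3 weeks (1.84 ± 0.16, adjusted p = 2.99e-11). Ifi44 measured 15.2 to 20.2 CPM and then 64.3 to 93.6 CPM (2.09 ± 0.20, adjusted p = 5.96e-10). Isg20, an exonuclease of RNA, rose by 1.03 (adjusted p = 0.000476).

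The promoters of a pair of GBPs and a pair of IFIT genes are shown because the GBP changes differed between cultures without and with fresh cytokine, as described further on, while those of the IFIT genes did not pass that test. Each sequence is the RefSeq promoter window (GRCm38.p6) from 250 bases before to 50 bases after the gene start, 5′ to 3′ on the strand of the gene. Capitals mark a GAS match (TTCNNNGAA) or an ISRE core match (GAAANNGAAA, here read on the opposite strand).
Gbp2b, chr3:142594597-142594896, plus strand: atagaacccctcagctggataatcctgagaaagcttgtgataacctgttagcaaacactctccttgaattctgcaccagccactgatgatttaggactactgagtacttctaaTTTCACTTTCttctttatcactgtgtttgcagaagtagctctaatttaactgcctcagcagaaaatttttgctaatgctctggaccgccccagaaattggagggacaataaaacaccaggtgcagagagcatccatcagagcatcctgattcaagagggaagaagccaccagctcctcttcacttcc
Gbp7, chr3:142530086-142530385, plus strand: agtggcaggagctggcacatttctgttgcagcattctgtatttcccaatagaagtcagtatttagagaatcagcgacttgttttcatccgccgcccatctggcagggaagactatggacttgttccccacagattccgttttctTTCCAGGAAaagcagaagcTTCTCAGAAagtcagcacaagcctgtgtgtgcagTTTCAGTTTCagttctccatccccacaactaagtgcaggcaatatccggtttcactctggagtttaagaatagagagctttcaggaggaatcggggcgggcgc
Ifit1, chr19:34640639-34640938, plus strand: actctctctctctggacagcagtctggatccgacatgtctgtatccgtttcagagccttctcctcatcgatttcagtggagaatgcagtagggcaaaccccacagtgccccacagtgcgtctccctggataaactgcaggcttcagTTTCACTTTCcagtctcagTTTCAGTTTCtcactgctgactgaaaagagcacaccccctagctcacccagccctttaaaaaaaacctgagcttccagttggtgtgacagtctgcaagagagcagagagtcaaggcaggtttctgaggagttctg
Ifit3, chr19:34583279-34583578, plus strand: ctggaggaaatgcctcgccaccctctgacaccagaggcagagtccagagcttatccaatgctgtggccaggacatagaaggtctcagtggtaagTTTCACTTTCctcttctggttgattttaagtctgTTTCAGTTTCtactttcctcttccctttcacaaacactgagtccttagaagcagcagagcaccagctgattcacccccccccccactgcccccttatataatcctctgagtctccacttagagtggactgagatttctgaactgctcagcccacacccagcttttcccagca
In these windows Gbp2b held 1 ISRE core, Gbp7 held 2 GAS matches and 1 ISRE core, and Ifit1 and Ifit3 each held 2 ISRE cores and no GAS match. Gbp3 and Gbp2, not shown, passed the same test as the GBPs shown and also held no GAS match. Gbp3 held 2 ISRE cores in its first window and 0 in its second, and Gbp2 held 1. The same letters were searched on both strands in every RefSeq promoter window of a tested gene. An ISRE core was present for 29 of the 99 risers with a promoter entry (29.3%), for 6 of the 85 fallers with one (7.06%) and for 264 of all 6405 tested genes with one (4.12%). A GAS match was present for 10.1% of the risers, 11.8% of the fallers and 7.87% of all tested genes, and an AP-1 match (TGANTCA) for 14.1%, 10.6% and 5.64%. Among the risers of the interferon lists with an entry, 21 of 41 held an ISRE core (51.2%) and 10 of 41 a GAS match (24.4%), while among the risers in no interferon list 8 of 58 held an ISRE core (13.8%) and 0 of 58 a GAS match. The share among interferon list genes that did not rise was not counted, so list membership and the rise cannot be told apart here. Over all 27025 genes with an entry the ISRE core was found for 3.99% and GAS for 9.55%. A match is a run of letters and not a shown binding site, and the 3 motifs can overlap one another.

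Members of the signalling pathway had a lower median change than the GTPases. Of the 14 tested JAK-STAT and IRF factors 7 rose and 0 fell, with a median log2 fold change of 0.94. Irf1 measured 22.3, 25.6 and 37.6 CPM at 2 weeks and 59.7, 93.6 and 73.6 CPM at 3 weeks (log2 fold change 1.36 ± 0.20, adjusted p = 1.06e-05). Stat2, the STAT of the type I interferon complex, measured 1.90 to 8.09 CPM at 2 weeks, where its controls held 1.93 to 2.30 CPM, and 29.0 to 37.2 CPM at 3 weeks (2.43 ± 0.43, adjusted p = 0.00028). Irf7, which amplifies the interferon response, rose by 1.52 ± 0.27 (adjusted p = 0.00028). Of 7 tested feedback inhibitors, 1 rose: Usp18, which removes ISG15 from proteins and blocks the type I receptor, measured 24.1, 13.3 and 24.8 CPM and then 74.7, 84.6 and 93.6 CPM (1.95 ± 0.25, adjusted p = 4.07e-07).

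Antigen presentation genes had lower median changes still, 0.59 for the immunoproteasome. All 4 immunoproteasome genes called of the 7 tested rose: Psmb10 from 218 to 243 CPM to 310 to 401 CPM (log2 fold change 0.59 ± 0.11, adjusted p = 0.000657), Psmb9 by 0.91 ± 0.18 (adjusted p = 0.00148), Psmb8 by 1.03 ± 0.24 (adjusted p = 0.00887), and the activator subunit Psme1 by 0.47 ± 0.14 (adjusted p = 0.0465). Of 18 tested genes of MHC class I and peptide loading 4 rose and 0 fell, with a median of 0.52. H2-T22, a non-classical class I chain, measured 54.5, 38.0 and 43.3 CPM and then 89.6, 121 and 100.3 CPM (1.19 ± 0.17, adjusted p = 4.98e-06). Tapbp (0.78), Canx (0.66) and H2-D1 (0.43), which load or form class I molecules, passed with adjusted p of 0.0423, 0.0488 and 0.0475. B2m, the light chain of class I, measured 1864, 1501 and 2031 CPM and then 2390, 1734 and 2685 CPM; the groups overlapped and the change of 0.33 ± 0.13 missed the threshold (adjusted p = 0.179). Nlrc5, the class I transactivator, was near the counting floor: 2.68 to 4.04 CPM at 2 weeks and 13.2, 10.2 and 0 CPM at 3 weeks, where the 0 was in the shallow library (log2 fold change 1.51 ± 0.62, adjusted p = 0.185). Psmb10, Psmb9 and H2-T22 kept their call without each of the 6 IFNγ libraries in turn. Psmb8 lost it without replicate 1 at 2 weeks or replicate 2 at 3 weeks (adjusted p up to 0.0809), and Psme1, Tapbp, H2-D1 and Canx lost it without any of 4 or 5 of the 6 (up to 0.281, 0.273, 0.293 and 0.585).

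The PARPs of the interferon response, which attach ADP-ribose to proteins, were low in abundance. Parp14 measured 4.47, 2.85 and 8.09 CPM at 2 weeks and 19.3, 16.9 and 26.8 CPM at 3 weeks, with 0 to 1.15 CPM in the controls. The groups did not overlap, and the log2 fold change was 1.84 ± 0.54 (adjusted p = 0.046). Parp9 rose by 1.71 ± 0.33 (adjusted p = 0.000873) and Parp12 by 2.21 ± 0.58 (adjusted p = 0.0231). Parp11 passed at 1.33 ± 0.37 (adjusted p = 0.0354) with overlapping groups, 6.36 to 15.2 CPM against 6.69 to 36.9 CPM. In all, 4 of 8 tested members of the PARP list rose and 0 fell, with a median of 1.63. Parp9 kept its call without each of the 6 IFNγ libraries in turn, while Parp14 lost it without any of 5 of them, all but replicate 3 at 2 weeks (adjusted p up to 0.188), and Parp12 and Parp11 without any of 4, replicates 1 and 3 at 2 weeks and 1 and 2 at 3 weeks (up to 0.129 and 0.274). Of the 6 tested checkpoint ligands and chemokines 0 passed in edgeR or DESeq2, with 3 at an unadjusted p under 0.05 and a median of 0.88. Cd274, which encodes PD-L1, measured 4.47, 0.95 and 2.89 CPM at 2 weeks and 13.2, 7.89 and 3.34 CPM at 3 weeks (1.71 ± 0.64, adjusted p = 0.14). At these counts a change of that size was not separable from the spread.

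**Figure D2:**
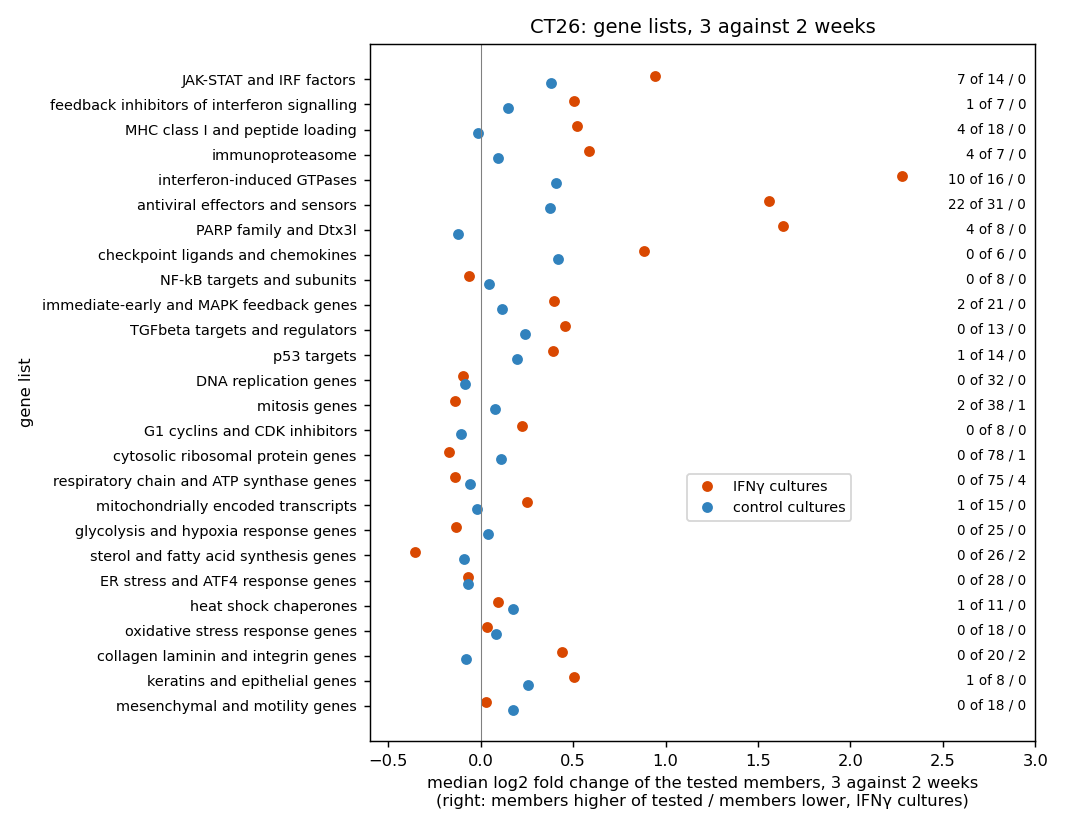
Median log2 fold change from 2 to 3 weeks of the tested members of 26 gene lists, in IFNγ cultures (orange) and control cultures (blue), with the IFNγ counts of members higher of those tested and members lower at the right. The orange points of the GTPase (2.28), PARP (1.63) and antiviral (1.56) lists lie farthest to the right, while the control medians of all lists lie between -0.12 and 0.42.

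The levels over the whole course show where the third week stands. Without fresh IFNγ, Gbp7 had a mean of 62.5 CPM after 1 week, 69.0 CPM after 2 weeks and 333 CPM after 3 weeks. At 2 weeks its mean was 173 CPM with fresh IFNγ for 2 h and 295 CPM with fresh IFNγ for 24 h. At 3 weeks these were 357 and 342 CPM, and the 3 ranges overlapped (324 to 346 CPM without, 315 to 380 CPM at 2 h and 315 to 368 CPM at 24 h). Naive cells given IFNγ for 24 h held 216 CPM. Gbp4 had means of 21.5, 42.7 and 294 CPM after 1, 2 and 3 weeks without fresh IFNγ, against 470, 370 and 315 CPM with fresh IFNγ for 24 h. The 3-week libraries without fresh IFNγ (248 to 319 CPM) overlapped those given it for 24 h (276 to 338 CPM), while at 2 weeks the ranges were 35.8 to 47.5 and 321 to 431 CPM. Gbp2b went past its 24 h level at 3 weeks, with a mean of 278 CPM without and 229 CPM with fresh IFNγ, and ranges that overlapped (234 to 334 and 207 to 252 CPM).

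Ifit1, Ifit3 and Usp18 followed another course, with a low point at 2 weeks. Ifit1 had a mean of 33.7 CPM after 1 week without fresh IFNγ (31.6 to 35.7), 15.5 CPM after 2 weeks (12.3 to 21.5) and 87.5 CPM after 3 weeks. With fresh IFNγ for 24 h its means were 141 CPM in naive cells, 70.4 CPM after 1 week, 22.5 CPM after 2 weeks and 118 CPM after 3 weeks. The 2-week cultures were therefore the lowest in Ifit1 of the IFNγ cultures without fresh cytokine, and also of those given it for 24 h. Usp18 had means of 48.4, 20.8 and 84.3 CPM after 1, 2 and 3 weeks without fresh IFNγ, and 72.9, 36.9 and 87.7 CPM with it for 24 h. Ifit3 had means of 9.03, 3.86 and 44.5 CPM without fresh IFNγ, and 36.2, 13.0 and 55.3 CPM with it for 24 h. The low point was not particular to these genes. Without fresh IFNγ the means were 28.45, 18.80 and 49.23 CPM for Sp100, 26.2, 17.5 and 78.4 CPM for Ifi44 and 13.1, 5.71 and 33.2 CPM for Stat2. For Ifit3 the ranges at 1 and 2 weeks overlapped (4.04 to 13.6 and 1.90 to 5.20 CPM), as they did for Ifi44 and Stat2. Replicate 3 at 1 week without fresh IFNγ held 24.5% of the CT26 median counts. The step from 1 to 2 weeks was not tested. Irf1, in contrast, had a mean of 28.5 CPM after both 1 and 2 weeks and 75.6 CPM after 3 weeks.

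**Figure D3:**
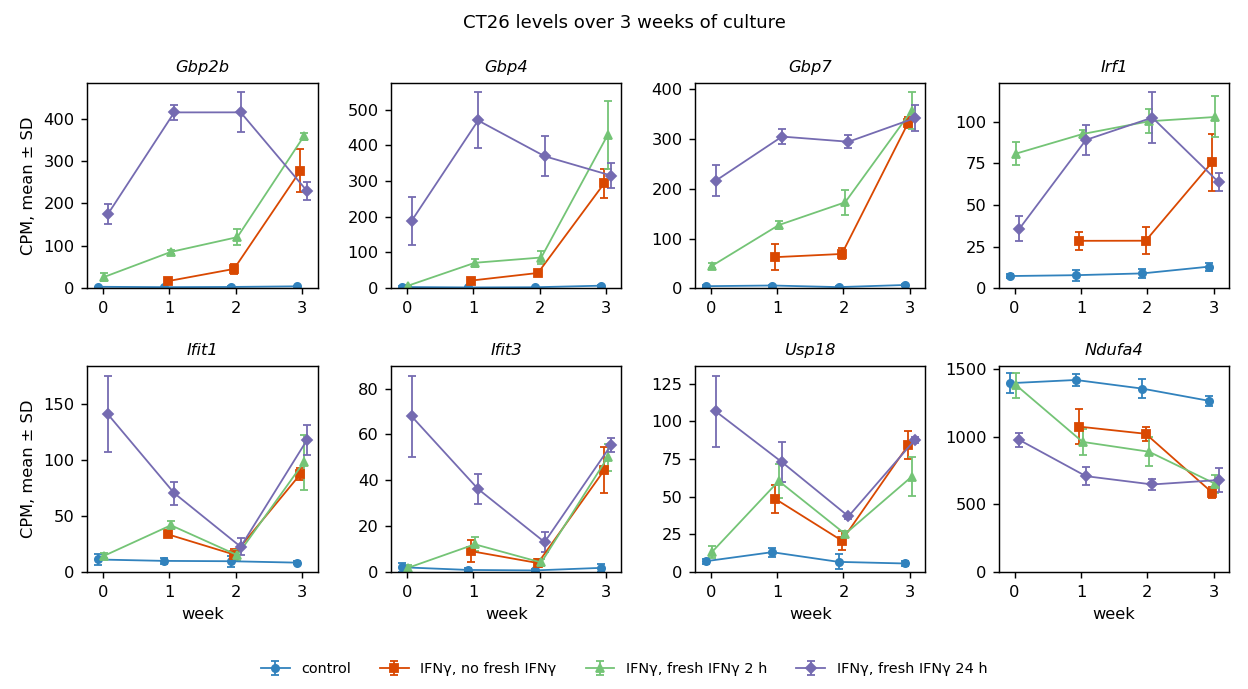
Mean CPM ± SD (3 libraries a point) of 8 genes at weeks 0 to 3 in control cultures, in IFNγ cultures without fresh IFNγ and in cultures given IFNγ freshly for 2 h or 24 h, with points shifted sideways for legibility. For Gbp7 the 3 IFNγ lines meet at 3 weeks (333, 357 and 342 CPM) after lying apart at 2 weeks (69.0, 173 and 295 CPM), and for Ifit1 all 3 lines dip at 2 weeks.

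The same week was compared in the cultures given fresh IFNγ, which share no library with the comparison above. With fresh IFNγ for 2 h, 67 genes were higher at 3 than at 2 weeks (0.787% of those tested) and 109 lower (1.28%). Of the 136 risers, 122 also lay above 0 there (89.7%, against 52.9% of all tested genes) and 41 passed, and of the 134 fallers 126 lay below 0 (94.0%, against 47.0%) and 20 passed. With fresh IFNγ for 24 h, 10 genes were higher (0.117%) and 13 lower (0.153%), and 6 of the 136 risers and 6 of the 134 fallers were among them. There 98 of the 136 risers lay above 0 (72.1%, against 53.2% of all tested genes). Of the 134 fallers 127 lay below 0 (94.8%, against 46.7%). The GBPs then showed no rise: the log2 change from 2 to 3 weeks at 24 h was 0.21 for Gbp7 (adjusted p = 0.678), -0.23 for Gbp4 (adjusted p = 0.756) and -0.86 for Gbp2b, a fall (adjusted p = 0.000536). Ifit1 (2.37, adjusted p = 1.44e-08), Ifit3 (2.11, adjusted p = 0.000219), Ifi44 (1.26, adjusted p = 2.61e-05), Usp18 (1.24, adjusted p = 0.00135) and Sp100 (1.06, adjusted p = 0.00368) rose at 24 h as well.

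The difference between the changes without and with 24 h of fresh IFNγ was tested as an interaction, a contrast added after these values were seen. It was above 0 for 19 genes (0.223%) and below 0 for 4 (0.0470%). Of the 16 tested interferon-induced GTPases 7 were among the 19. The differences were 3.40 ± 0.22 for Gbp2b (adjusted p = 5.14e-15), 3.06 for Gbp4 (adjusted p = 1.57e-10), 2.59 for Gbp3 and 2.05 for Gbp7. Irf1 (2.05, adjusted p = 9.61e-07), Psmb8 (1.41, adjusted p = 0.0431) and Psmb10 (0.83, adjusted p = 0.00106) also passed. For Ifit1 the difference was 0.16 (adjusted p = 0.95), for Ifit3 1.38 (adjusted p = 0.488) and for Usp18 0.71 (adjusted p = 0.587).

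In the control cultures 2 genes of the 8 interferon lists were higher at 3 than at 2 weeks, both among the 16 tested interferon-induced GTPases: Igtp and Tgtp1. For Igtp this was a rise from a low point at 2 weeks to a mean near those of weeks 0 and 1, as given above. Tgtp1, a T cell-specific GTPase family member, was counted at 0 in all 3 control libraries at 2 weeks and measured 15.6, 47.3 and 37.4 CPM at 3 weeks (adjusted p = 0.00219). In IFNγ it measured 406, 388 and 192 CPM and then 797, 513 and 669 CPM, which did not pass (adjusted p = 0.0734), nor did the difference between the IFNγ and control changes (adjusted p = 0.0898). Tgtp1 and Tgtp2 are near-identical copies between which reads may be split. Of the 136 risers 89 lay above 0 in the controls (65.4%, against 50.0% of all tested genes), with a median log2 fold change of 0.19, and 1, Igtp, passed. Of the 134 fallers 108 lay below 0 (80.6%, against 49.8%), with a median of -0.11, and 1 passed. The test of the difference between the IFNγ and the control change called 14 genes, 9 with a higher change under IFNγ (0.106%) and 5 with a lower one (0.0587%). Of the 12 risers drawn in the plot of CPM, only Gbp3 and Ifit1 passed it, and their control changes lay below 0 (-1.27 and -0.15). The control changes of the others lay above 0. They were 1.43 for Zbp1 (adjusted p = 0.0801 in the control comparison), 1.38 for Gbp7, 1.31 for Gbp4 and 1.27 for Iigp1. For these the IFNγ rise was not shown to exceed the control change. Counts of interferon genes in the controls are low, often a few reads a library, which widens the error of their control change and of the difference.

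Among the 9, Gbp3 (difference 3.56, adjusted p = 0.0146), Ifit1 (2.68, adjusted p = 0.00913), Usp18 (2.27, adjusted p = 0.0392), Sp100 (1.83, adjusted p = 0.00913), H2-T22 (1.45, adjusted p = 0.0392) and Isg20 (1.38, adjusted p = 0.0392) rose in IFNγ and did not pass in the controls. Sp100, a component of nuclear bodies, measured 14.3, 19.0 and 23.1 CPM at 2 weeks of IFNγ and 58.0, 49.6 and 40.1 CPM at 3 weeks, with 10.6 to 17.2 CPM in the controls. Anp32b, a histone chaperone, rose by 0.81 in IFNγ and stood at -0.45 in the controls (difference 1.26, adjusted p = 0.0392). Ybx1, an RNA-binding protein, fell in the controls from 282 to 329 CPM to 124 to 129 CPM (log2 fold change -1.24, adjusted p = 0.000315). In IFNγ it rose from 102, 137 and 145 CPM to 157, 290 and 174 CPM (0.71, adjusted p = 0.0465), a difference of 1.95 (adjusted p = 0.000191). Wdr18 stood at 48.5 to 61.7 and 60.6 to 66.9 CPM in IFNγ, which did not pass, and fell in the controls from 92.0 to 95.2 CPM to 46.2 to 62.0 CPM (difference 0.96, adjusted p = 0.0392). In IFNγ the mean of Wdr18 was 92.7 CPM at 1 week and 56.1 CPM at 2 weeks, and that of Ybx1 was 319 and 128 CPM. Both were thus already down in IFNγ before they fell in the controls, an earlier step that was not tested. The IFNγ change of Ybx1 missed the threshold without replicate 1 or 2 at 2 weeks or replicate 2 at 3 weeks (adjusted p up to 0.669), and that of Anp32b also without replicate 3 at 3 weeks (up to 0.177).

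Among the 5 with a lower change under IFNγ, Ndufa4 (difference -0.70, adjusted p = 0.0319), Wdr31 (-0.86, adjusted p = 0.0444), Sirt5 (-0.86, adjusted p = 0.0444) and Tubb6 (-0.80, adjusted p = 0.047) fell in IFNγ and did not pass in the controls. Wdr31 measured 501, 496 and 678 CPM and then 343, 337 and 385 CPM in IFNγ, and 958 to 1236 CPM in the 6 controls. Sirt5, which removes succinyl groups from mitochondrial proteins, fell by 0.51 with overlapping groups, 464 to 579 CPM against 291 to 498 CPM. The IFNγ call of Sirt5 was lost without any of 4 of the 6 libraries, replicates 1 and 3 at 2 weeks and 1 and 2 at 3 weeks (adjusted p up to 0.302), and that of Tubb6 without replicate 2 at 3 weeks (0.0724). Gm43558, a transcript model still to be verified, rose in the controls (1.19) and stood at -0.40 in IFNγ, which did not pass (difference -1.59, adjusted p = 0.0091). Its mean in IFNγ was 69.8 CPM at 1 week and 173 CPM at 2 weeks, an earlier step that was not tested. In the controls the mean went from 94.8 CPM at 2 weeks to 219 CPM at 3 weeks.

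**Figure D4:**
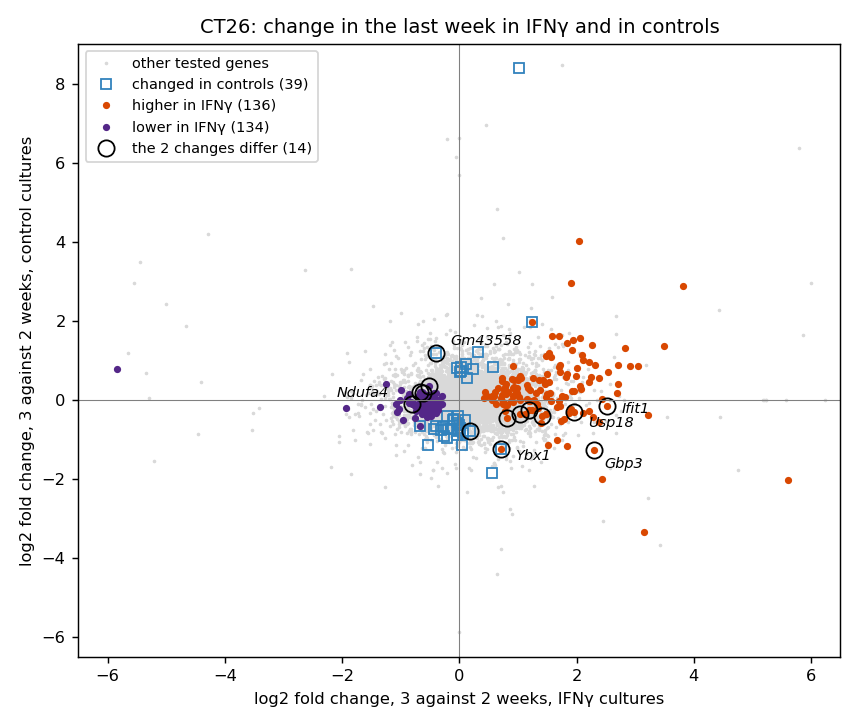
Log2 fold change from 2 to 3 weeks in IFNγ cultures (x axis) against control cultures (y axis) for the tested genes, with genes higher (136) or lower (134) in IFNγ, changed in controls (39) and those whose 2 changes differ (14) marked; 11 genes, none of them called, lie outside the axes. The risers extend to the right at control values mostly between -1 and 2, and most fallers form a narrow group left of 0.

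The fallers were abundant transcripts that changed by little. Their median level over the 45 CT26 libraries was 464 CPM, against 16.9 CPM for all tested genes and 28.8 CPM for the risers. Together they summed to 112478 to 126180 CPM at 2 weeks of IFNγ and 79756 to 92117 CPM at 3 weeks. In the controls the same genes held 133064 to 138383 and then 121195 to 131154 CPM. The sum at 3 weeks of IFNγ was thus below that of every other library of the 4 groups, as the choice of the genes makes likely. Of the 134, 26.1% were not protein coding, against 8.65% of all tested genes, and 21.6% had a provisional symbol, against 9.38%. Small changes pass more readily at high counts, where the standard error is lower (0.09 for the faller Dnajb14, 0.54 for the riser Parp14). The high level of the fallers can thus come in part from the test. Their shares were not set against tested genes of like level.

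Ndufa4, a subunit associated with cytochrome c oxidase, had the smallest p-value among the fallers. It measured 1062, 1038 and 963 CPM at 2 weeks and 602, 542 and 615 CPM at 3 weeks (log2 fold change -0.80 ± 0.11, adjusted p = 1.42e-06), with 1221 to 1414 CPM in the 6 controls. Its mean was 1395 CPM in naive cells and 975 CPM in naive cells given IFNγ for 24 h, and in cultures given fresh IFNγ for 24 h it was 646 CPM at 2 weeks and 679 CPM at 3 weeks. The change without fresh IFNγ and that with it for 24 h differed (-0.87, adjusted p = 0.000423). The next were the long non-coding RNA B230312C02Rik (219 to 270 CPM and then 126 to 152 CPM, log2 fold change -0.82, adjusted p = 4.92e-05), the intronic transcript Gm37214 (-0.60, adjusted p = 5.24e-05), the non-coding Gm26909 (-0.70, adjusted p = 0.000124) and the unverified model Gm49413 (-0.60, adjusted p = 0.000378). Trim43b, of the tripartite motif family, fell by 0.66 (adjusted p = 0.00026).

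Protein-coding fallers came from several processes. Synrg, which binds clathrin adaptors, measured 2181, 2338 and 1894 CPM and then 1351, 1489 and 1197 CPM (log2 fold change -0.66, adjusted p = 0.000404). Gtpbp4, a GTPase of large ribosomal subunit assembly, measured 563 to 592 CPM and then 371 to 399 CPM (-0.57, adjusted p = 0.000476). Bcas2, of the spliceosome, fell by 0.55 (adjusted p = 0.000654), the microtubule-associated Map4 by 0.48 (adjusted p = 0.0011) and Dnajb14, a co-chaperone of the endoplasmic reticulum, by 0.48 (adjusted p = 0.0011) from 13800 to 16580 CPM to 9826 to 11720 CPM. Sag, the arrestin of photoreceptors, measured 1080, 1029 and 1058 CPM and then 751, 666 and 776 CPM (-0.54, adjusted p = 0.000462). Other fallers, named after their values were seen, are also known from tissues other than colon: the photopigment gene Rrh (-0.79), the liver enzyme Cyp2e1 (-0.55), the olfactory receptor Olfr889 (-0.41) and the vomeronasal receptor Vmn2r3 (-0.39). Which part of these genes the counted reads came from was not tested.

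**Figure D5:**
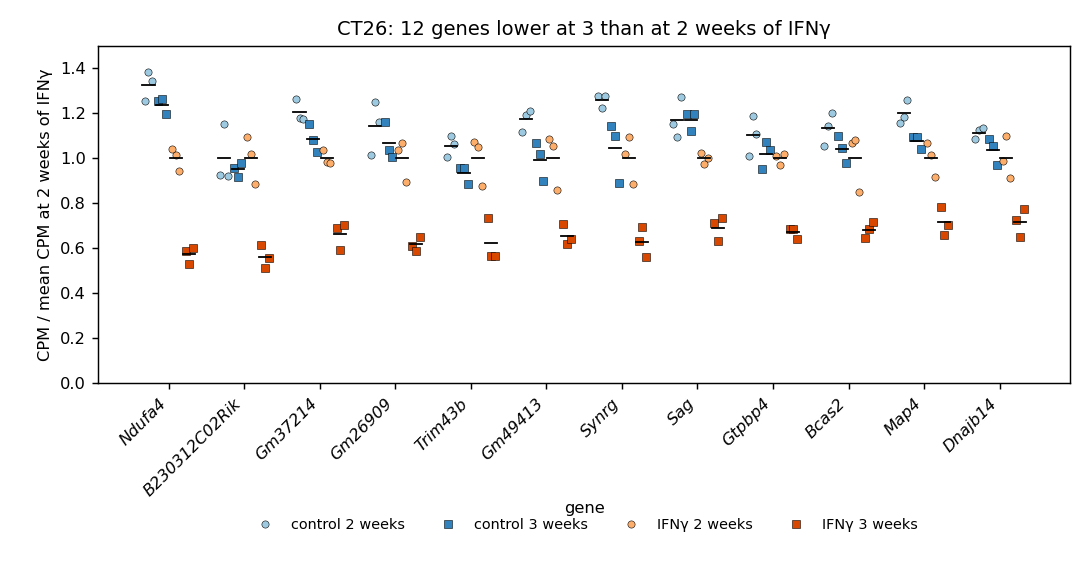
CPM divided by the mean CPM of the 3 libraries at 2 weeks of IFNγ, on a linear axis from 0, in each library of the 4 CT26 groups for the 12 genes with the smallest p-values among those lower at 3 weeks of IFNγ, with black bars at the means. The choice also required every 3-week IFNγ value to lie below every 2-week one. The 3-week IFNγ squares thus stand below the 2-week IFNγ points, for Ndufa4 at 542 to 615 CPM against 963 to 1062 CPM. They also stand below all control points for every gene shown, which was not part of the choice.

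Outside the interferon lists few list members passed. Of 75 tested respiratory chain and ATP synthase genes 4 fell: Ndufa4, the ATP synthase subunits Atp5c1 (log2 fold change -0.41, adjusted p = 0.00782) and Atp5g1 (-0.36, adjusted p = 0.0348), and Sdhd of complex II (-0.44, adjusted p = 0.0335). Of the 15 mitochondrially encoded transcripts 1 rose, mt-Nd4 (0.43, adjusted p = 0.0162). Of 26 sterol and fatty acid synthesis genes 2 fell, the sterol demethylase genes Cyp51 (-0.56, adjusted p = 0.0375) and Msmo1 (-0.47, adjusted p = 0.0312). Of 20 collagen, laminin and integrin genes 2 fell: Sparc, a collagen-binding matrix protein, from 60.8 to 90.7 CPM to 34.3 to 48.5 CPM (-0.85, adjusted p = 0.0102), and Loxl2, a collagen cross-linking enzyme, with overlapping groups (-0.47, adjusted p = 0.0183).

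Of 38 mitosis genes 2 rose, the kinetochore motor Cenpe (1.26, adjusted p = 0.00631) and the condensin subunit Smc4 (0.76, adjusted p = 0.0295), and Cdca3 fell (-0.76, adjusted p = 0.0233), while 0 of 32 DNA replication genes passed. Of 78 ribosomal protein genes 1 fell, Rpl24 (-0.47, adjusted p = 0.029). Of 21 immediate-early and MAPK feedback genes 2 rose: Errfi1, an inhibitor of the EGF receptor, with overlapping groups (1.06, adjusted p = 0.047), and Ereg, an EGF receptor ligand (0.91, adjusted p = 0.0491). The p53 target Ccng1 rose by 1.21 (adjusted p = 0.027), the chaperone Hsph1 by 0.93 (adjusted p = 0.0327), and Ly6a, the GPI-anchored surface protein Sca-1 in the list of epithelial genes, from 96.9 to 114 CPM to 249 to 358 CPM (1.50 ± 0.17, adjusted p = 6.92e-08). No member passed in the lists of NF-kB targets (8 tested), TGFβ targets (13), glycolysis and hypoxia genes (25), ER stress genes (28), oxidative stress genes (18), G1 cyclins and CDK inhibitors (8) or mesenchymal genes (18). In these 7 lists and that of DNA replication genes, 23 members had an unadjusted p under 0.05 in edgeR and 3 passed in DESeq2. Of the calls outside the interferon lists in these lists, those of Ndufa4 and Ly6a were kept without each of the 6 IFNγ libraries in turn, and each of the others was lost without at least 1 of them, most often replicate 1 at 2 weeks or replicate 2 at 3 weeks.

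Of the 136 risers 84 were in no interferon list. Some of these, named after their values were seen, are known interferon-induced genes: the DNA sensor family members Ifi203 (log2 fold change 1.48), Ifi204 (0.92), Ifi207 (3.15) and Mndal (1.96), the nuclear body genes Sp110 (1.70) and Sp140 (1.15), Apol9a (1.04), Apol9b (1.24), the helicase Ddx60 (1.98) and Trim56 (1.74). Members of the Ifi200 family and Apol9a and Apol9b are close copies, so the split of reads among them is uncertain. Others are not known as interferon genes: the scaffold Akap9 (1.50), the kinase Rock1 (2.07), the chromatin remodeller Atrx (0.95), the Polycomb subunit Suz12 (1.56) and the non-coding Kcnq1ot1 (1.43).

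The third week was also set beside that of YUMM2.1, a mouse melanoma line treated in the same way, in 1 fit of all 90 libraries that was added after the values were seen. There 0 genes rose in YUMM2.1 by edgeR's test (275 at an unadjusted p under 0.05) and 13 fell, of 10339 tested. The CT26 change exceeded the YUMM2.1 change for 42 genes (0.406%) and lay below it for 2 (0.0193%). All 136 CT26 risers were in this fit: 78 lay below 0 in YUMM2.1 and the difference passed for 35. The 78 are 57.4% of the risers, near the 55.3% of all tested genes that lay below 0 in YUMM2.1. Gbp7 in YUMM2.1 measured 116, 128 and 99.5 CPM at 2 weeks and 72.9, 67.7 and 82.6 CPM at 3 weeks (log2 fold change -0.64, adjusted p = 0.0876), a difference between lines of 2.89 ± 0.23 (adjusted p = 4.78e-16). Ifit3 fell there by 1.27 (adjusted p = 0.0161), Igtp by 1.01 (adjusted p = 0.000647) and Gbp2 by 0.88 (adjusted p = 0.00177). Gbp2b was counted at 0 in all 6 YUMM2.1 libraries, so no change can be given.

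The week of exposure and the time of harvest cannot be told apart within the IFNγ cultures, which is why the controls of the same weeks are set beside them. The number of fallers depended on the scaling and on the groups in the fit: with library totals in place of TMM factors, which moved the median log2 fold change of all genes from 0.04 to 0.18, there were 179 risers and 65 fallers, and with the 2 IFNγ groups alone in the fit 75 and 12. The 14 genes of the IFNγ and control difference became 52 with DESeq2, 36 without the shallow libraries and 2 with only the 4 groups in the fit. Without replicate 1 or replicate 2 at 2 weeks or replicate 2 at 3 weeks of IFNγ the counts were 72, 80 and 80 risers and 60, 70 and 47 fallers. Without the shallow libraries they were 133 and 142, and 110 of the 136 and 106 of the 134 genes remained. The 12 risers drawn in the plot of CPM kept their call under every one of 12 alternatives, among them each IFNγ replicate left out in turn. Their choice by the smallest p-values from the same libraries makes this likely. Of the 63 named genes that were called, 35 kept their call without each of the 6 IFNγ libraries in turn.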

How the data were processed

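A single table with the gene counts of all 90 samples was deposited by the authors, made with Salmon 0.13.1 on mm10 per the labels' processing notes and summarised to genes, per the study's methods, with tximport. The deposited counts are raw, so depth differs between libraries. The study discarded outlier samples without naming them, and all deposited columns were kept here. Symbols were matched for 53668 of 53697 identifiers, and coordinates are from GENCODE M21 (GRCm38).

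All 45 CT26 libraries (15 groups of 3) were fitted in edgeR 4.0.16 (R 4.3.3) with filterByExpr by group, TMM factors and the quasi-likelihood test, and p-values were adjusted by the Benjamini-Hochberg method over 8516 genes. The standard error is the size of the log2 fold change divided by the square root of F. CPM are counts divided by the effective library size and scaled by 1e+06. Genes were named as the 12 smallest p-values in each direction with groups that did not overlap, all genes passing the difference test, Parp14, Irf1, Cd274, B2m and Nlrc5, and up to 4 called genes per list; 1 gene of this rule is not reported here. Members and lists were chosen with earlier results of these data known. The fit of the CT26 libraries was tested on simulated data with changes placed at 3 weeks of IFNγ. It recovered 35 of 93 changes of log2 size 1 (37.6%) and 69 of 97 of size 2 (71.1%). Of its 107 calls 3 were false. Genes that did not pass may thus have changed. Libraries of a group differed by more than counting noise, with a chi-square per degree of freedom of 2.06 to 5.31, and none were identical. Whether the replicates were separate cultures is not stated, so p-values measure the spread between these samples. DESeq2 1.42.0 and other settings served as alternatives.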

Additional observations from a re-analysis of the deposited data

Results flagged for a closer look

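In 14 genes the change from 2 to 3 weeks differed between IFNγ and control cultures by edgeR's interaction test. The log2 difference (IFNγ change less control change) was 3.56 for Gbp3, 2.68 for Ifit1, 2.27 for Usp18, 1.95 for Ybx1, 1.83 for Sp100, 1.45 for H2-T22, 1.38 for Isg20, 1.26 for Anp32b and 0.96 for Wdr18. It was -0.70 for Ndufa4, -0.80 for Tubb6, -0.86 for Wdr31, -0.86 for Sirt5 and -1.59 for Gm43558. For Wdr18 and Gm43558 the change passed in the controls and not in the IFNγ cultures. Between 1 and 2 weeks of IFNγ the means of Wdr18, Gm43558 and Ybx1 had moved as in these controls, a step that was not tested.

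The change also differed between cultures without and with 24 h of fresh IFNγ. The log2 difference was 3.40 for Gbp2b, 3.06 for Gbp4, 2.59 for Gbp3, 2.52 for Gbp2, 2.05 for Gbp7, 2.05 for Irf1, 1.95 for Iigp1, 1.92 for Ly6a, 1.81 for Zbp1, 1.41 for Psmb8, 1.13 for Igtp and 0.83 for Psmb10, and -0.87 for Ndufa4.

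Between the CT26 and YUMM2.1 lines the log2 difference of the changes was 4.75 for Ifit3, 3.51 for Gbp4, 3.33 for Ifit1, 2.91 for Gbp3, 2.89 for Gbp7, 2.70 for Gbp2, 2.58 for Iigp1, 2.28 for Zbp1, 2.23 for Igtp, 2.05 for Irf1, 1.51 for H2-T22, 1.27 for Psmb9, 1.08 for Psmb10, 0.90 for Psme1 and -1.04 for Sparc. The last 2 sets come from contrasts chosen after the data were seen.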

How the results depend on the processing

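The direction of every one of the 68 named genes was the same under all alternatives that gave a value, and the calls of 35 of the 63 called ones were kept without each of the 6 IFNγ libraries in turn. The counts moved more. With DESeq2 75 genes changed in the controls (39 in edgeR), 52 in the difference of the IFNγ and control changes (14) and 80 with fresh IFNγ for 24 h (23). With library totals only, 65 genes fell in IFNγ (134) and 31 differed. With no filter on low counts 89 changed in the controls and 100 differed, of 24691 genes tested. With only the compared groups in the fit, 75 rose and 12 fell in IFNγ, 83 changed in the controls and 2 differed. Without the 2 libraries under 25% of the median total, 36 differed. With a log2 fold change of at least 1 as well, 9 fell in IFNγ, 8 changed in the controls and 9 differed. Leaving out each replicate in turn gave 72 to 137 risers and 47 to 161 fallers in IFNγ, 17 to 35 changes in the controls and 4 to 18 differences, the lowest without control replicate 1 or 3 at 2 weeks. Leaving out 1 library also left fewer samples in the test; the cause of the other shifts was not tested.

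The 52 risers of the interferon lists were 39 to 56 under these settings, an alternative added after seeing the data. The alternatives for the contrast with fresh IFNγ for 24 h (23 genes, 19 to 28) were also added then. So was that for YUMM2.1 (44 genes, 41 without the shallow CT26 libraries), which kept a shallow YUMM2.1 library. With library totals the median changes of the DNA replication (0.05), mitosis (0.00) and ER stress (0.07) lists were no longer below 0, and with only the compared groups that of the feedback inhibitors was -0.16. Same-numbered samples did not deviate together (correlations of -0.06 to 0.03), and only IFNγ replicate 2 correlated best with its own number, so the numbers were not taken as pairs; with the replicate block 149 genes rose and 149 fell in IFNγ, 42 changed in the controls and 14 differed. At these depths a gene under about 10 CPM at 3 weeks of IFNγ rests on 3 reads or fewer in the shallow library.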
